A study of Mus musculus with 9 samples.

Results

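The natriuretic peptide family comprises small secreted peptide hormones and the membrane receptors that bind them. The rows Nppa, Npr1, Npr2 and Npr3 were sought in a table of 18956 gene symbols from bulk RNA sequencing of mouse brain, and 2 of the 4 were measured: Nppa, the precursor of atrial natriuretic peptide, and Npr2, the receptor for C-type natriuretic peptide. Npr1 and Npr3 are not analysed here. Nppc, the precursor of C-type natriuretic peptide, belonged to a list of 55 further genes of peptide handling and cyclic GMP signalling, of which 38 were measured and tested. The family was chosen by gene name with earlier results of these data known, and counts as selected on the read counts of these same 9 libraries. Nppa and Npr2 are therefore described, with no test drawn on them.

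The tissue was labelled as the anterior paraventricular nucleus of the thalamus, a midline nucleus of mostly glutamatergic neurons, and came from BALB/c mice. There were 3 groups of 3 libraries. Non-stressed mice were given saline, the stressed saline group had social defeat (called smSDS in the labels) for 5 days and saline, and the stressed SHNK group had the same 5 days of defeat and (2S,6S)-HNK, a hydroxynorketamine that arises from ketamine. No source used here states sex, age, dose or time of sampling. Whether each library is a different animal is not stated either, so p-values measure only the spread between these libraries, which may be technical.

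Atrial natriuretic peptide is best known as a heart hormone that promotes salt excretion and widens vessels, and it is also made by groups of neurons in the brain. Npr1 and Npr2 are guanylyl cyclases: binding of the peptide outside the cell makes the inner domain produce cyclic GMP, which acts on kinases, channels and phosphodiesterases. Npr1 responds chiefly to atrial and B-type peptide and Npr2 to C-type peptide. Npr3 lacks the cyclase domain and clears the peptides from the surroundings.

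Nppa lies on chromosome 4 (GRCm38, chr4:148000722-148002079, plus strand) and Nppc on chromosome 1 (chr1:86666291-86670571, minus strand).

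The 250 bases before the annotated start of each ligand gene are shown because the level of one gene varied widely between the groups and that of the other little. Whether these sequences bear on those levels was not tested. They are from RefSeq on GRCm38.p6, 5′ to 3′ on the strand of the gene, with the matches to 6 searched motifs in capitals.
Nppa, chr4:148000472-148000721: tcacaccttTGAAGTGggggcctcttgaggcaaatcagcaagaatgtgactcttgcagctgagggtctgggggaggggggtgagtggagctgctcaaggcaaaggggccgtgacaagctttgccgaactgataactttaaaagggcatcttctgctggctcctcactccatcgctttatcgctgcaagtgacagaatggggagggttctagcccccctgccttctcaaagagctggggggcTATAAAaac
Nppc, chr1:86670574-86670823, minus strand: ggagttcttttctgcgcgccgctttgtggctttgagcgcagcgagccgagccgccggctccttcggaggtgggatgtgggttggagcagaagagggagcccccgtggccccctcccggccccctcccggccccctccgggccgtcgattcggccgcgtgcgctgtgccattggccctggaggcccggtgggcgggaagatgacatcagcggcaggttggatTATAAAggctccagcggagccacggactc
All motifs were searched on both strands, and no matches overlapped. Those with a match were the TATA box, with the letters TATAAA, and an Nkx2-5 site, with the letters TNAAGTG. Nppa held TATAAA at -9 to -4 and TNAAGTG at -241 to -235, counted back from its start. Nppc held TATAAA at -29 to -24. Among 32851 promoters of the same length, 12.4% held TATAAA and 10.1% held TNAAGTG. The other motifs had no match in these windows. Only 1 exact pattern was searched for each motif, so variant forms of a site were not sought and may be present. The cyclic AMP response element, searched as TGACGTCA, was in 1.55% of all promoters. The AP-1 site, searched as TGANTCA, was in 6.75% of them. A GATA site, searched as AGATAA, was in 9.99%, and the serum response element in 1.47%.

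The level of Nppa separated all 3 groups. In CPM, reads scaled to a common library total, it was 1.47, 0.940 and 2.13 in non-stressed saline replicates 1 to 3. It was 6.28, 19.2 and 14.5 in stressed saline and 0.231, 0.179 and 0.136 in stressed SHNK. The lowest stressed saline library was above the highest non-stressed one, every SHNK library was below every other library, and stressed saline replicate 1 was the lowest of its group. These levels rest on 67, 30 and 87 reads in non-stressed saline, 296, 895 and 515 in stressed saline, and 11, 9 and 5 in SHNK. The group means were 1.51 ± 0.599, 13.3 ± 6.52 and 0.182 ± 0.0478 CPM (SD, n = 3). In bulk tissue, fewer cells that make Nppa and less Nppa RNA per cell cannot be told apart.

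The fitted log2 fold change of Nppa in stressed saline against non-stressed saline was 3.12 ± 0.37 (standard error; 95% interval 2.33 to 3.90), an 8.68-fold higher level. In SHNK against stressed saline it was -6.15 ± 0.47 (-7.15 to -5.14), a 70.8-fold lower level, and in SHNK against non-stressed saline -3.03 ± 0.51 (-4.12 to -1.94), an 8.16-fold lower level. The comparisons share groups: the stressed saline libraries enter the first and second, so a high level there moves both. Nppa is therefore described by the order of its groups, SHNK lowest, non-stressed between and stressed saline highest, with no overlap between neighbours in that order. Leaving out each library in turn moved the 3 values over 2.76 to 3.46, -6.49 to -5.79 and -3.26 to -2.71.

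Npr2, on chromosome 4 (chr4:43631935-43651244, plus strand), varied little. It was measured at 24.9, 18.9 and 23.4 CPM in non-stressed saline, 23.8, 21.1 and 20.4 in stressed saline and 20.8, 18.7 and 16.6 in SHNK. The ranges of all 3 groups overlapped, with the lowest library in SHNK. Its log2 fold change was -0.044 ± 0.12 (95% interval -0.31 to 0.22) in stressed against non-stressed saline, -0.22 ± 0.13 (-0.49 to 0.050) in SHNK against stressed saline, and -0.26 ± 0.13 (-0.53 to 0.0066) in SHNK against non-stressed saline.

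By the threshold used across all genes (adjusted p under 0.05), 1 of the 2 members, Nppa, was past it in stressed against non-stressed saline, where 1.17% of the 18194 tested genes were. The same 1 of 2 was past it in SHNK against stressed saline, against 6.41% of all genes. In SHNK against non-stressed saline edgeR called 0 of 2, against 0.0055% of all genes. DESeq2 called 1 of 2, against 994 of the 18194 genes, and limma voom 0 of 2, against 0 of them. By edgeR 1 of 2 had an unadjusted p below 0.05, against 18.3% of all genes. Nppa was also the 1 member of 2 whose groups did not overlap in each of the 3 comparisons, as 12.9%, 30.4% and 21.3% of all genes did in the same order. Since the members were picked with these results known, the counts are descriptions from which nothing is read.

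**Figure D1:**
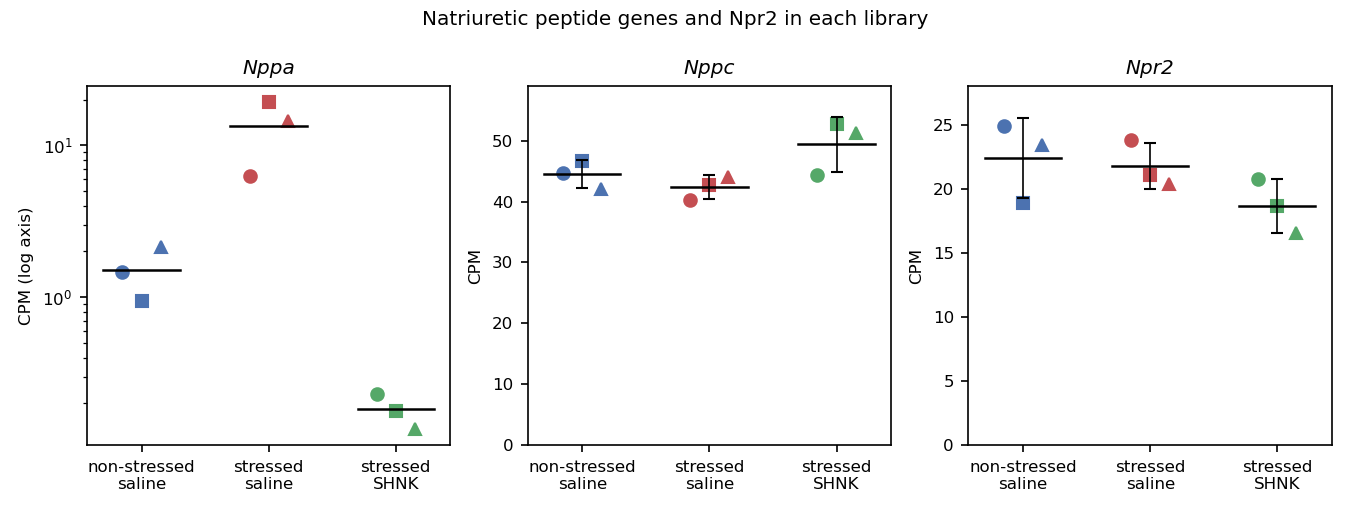
Level of Nppa (log axis), Nppc and Npr2 (linear axes from 0) in CPM, by group; circles, squares and triangles are replicates 1, 2 and 3, horizontal bars are means, and error bars on the linear panels are SD (n = 3). Nppa spans 0.136 to 19.2 CPM with no overlap between groups, while Nppc stays between 40.3 and 52.8 and Npr2 between 16.6 and 24.9.

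Nppc, the other ligand gene measured, was at 44.7, 46.7 and 42.1 CPM in non-stressed saline, 40.3, 42.8 and 44.1 in stressed saline and 44.3, 52.8 and 51.2 in SHNK. Stressed and non-stressed saline overlapped, and the SHNK libraries were just above the stressed saline ones. Nppc did not pass in stressed against non-stressed saline (-0.069 ± 0.092, adjusted p = 0.944), in SHNK against stressed saline (0.22 ± 0.092, 95% interval 0.027 to 0.42, adjusted p = 0.160) or in SHNK against non-stressed saline (0.15 ± 0.092, adjusted p = 0.398). Nppb, the precursor of B-type natriuretic peptide and the neighbour of Nppa on chromosome 4, is not analysed here.

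To compare genes, levels were divided by exon length, giving CPM per kilobase. In non-stressed saline Nppc stood at 42.7 ± 2.20, Npr2 at 4.80 ± 0.671 and Nppa at 1.75 ± 0.692 (SD, n = 3). In stressed saline the order changed: Nppc was at 40.7 ± 1.84, Nppa at 15.4 ± 7.54 and Npr2 at 4.66 ± 0.38. In SHNK it was Nppc at 47.5 ± 4.34, Npr2 at 4.0 ± 0.448 and Nppa at 0.210 ± 0.0553. Nppa was thus below Npr2 in every library outside the stressed saline group and above it in the 3 stressed saline libraries, where the CPM per kilobase of Nppa was 7.26, 22.2 and 16.8. Per 100 units of Nppc on this scale there were 2.43 to 6.11 of Nppa in non-stressed saline, 18.8 to 54.0 in stressed saline and 0.319 to 0.629 in SHNK. Nppc was therefore the most abundant of the 3 in all 9 libraries, at 7.6 to 13.8 times Npr2.

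The nearest measured gene beyond the end of Nppa was Clcn6, which encodes a chloride transporter and lies on the opposite strand, 2185 bases away in the RefSeq table. Its log2 fold changes were -0.086 ± 0.11, -0.14 ± 0.11 and -0.23 ± 0.11 in the 3 comparisons in the order used above (adjusted p = 0.937, 0.481 and 0.286). Clcn6 did not pass in any of them.

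There were 11 lists of region and cell type markers. Those of the habenula and of ependyma and cilia had the most genes past the threshold in both comparisons that include stressed saline. The markers of the paraventricular thalamus summed to 3400 to 3890 CPM in non-stressed saline, 3180 to 3790 in stressed saline and 3300 to 3680 in SHNK over 10 genes. Those ranges overlap, and of the 10 genes 1 rose in SHNK against stressed saline and none passed with stress. Of 12 genes listed for the habenula, the neighbouring nucleus, 9 were measured, and their sum was 70.4 to 128 CPM in non-stressed saline, 225 to 713 in stressed saline and 39.5 to 45.2 in SHNK. All 9 were detected in every library, since each gene in the table has a read in each. In stressed against non-stressed saline 8 of the 9 rose, and in SHNK against stressed saline 9 of 9 fell. Over all genes 1.15% rose in the first of these comparisons and 3.96% fell in the second. All marker lists were chosen with earlier results of these data known. The median log2 fold changes of the 9 habenula genes were 2.65 and -5.23, beside 3.12 and -6.15 for Nppa. In SHNK against non-stressed saline their median was -2.60, beside -3.03 for Nppa. There 0 of the 9 passed, and 5 had an unadjusted p below 0.05, against 18.3% of all genes. Over 10 genes of ependyma and cilia, the lining of the ventricle, the sums were 105 to 126, 195 to 296 and 115 to 172 CPM in the same order of groups, and 9 of 10 rose and 7 of 10 fell in the first and second comparisons. Of 10 choroid plexus genes, 2 rose with stress and 3 fell in SHNK against stressed saline, with sums of 50.3 to 62.1, 69.4 to 107 and 68.2 to 99.4 CPM in the order of groups used above. Of 10 astrocyte genes, 2 rose and 5 fell, with sums of 4540 to 4720, 3940 to 5120 and 3540 to 3810 CPM. In SHNK against non-stressed saline the medians were 0.31 for ependyma and cilia, 0.29 for choroid plexus and -0.34 for astrocytes. No gene of these lists passed there. For hypothalamus, endothelium, mural cells, fibroblasts, oligodendrocytes and microglia, edgeR called no gene in these comparisons other than 1 endothelial gene that fell in SHNK, with 0 to 4 genes per list at an unadjusted p below 0.05. The part of the differences in marker levels in the level of Nppa was not tested.

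Within the saline groups the order of libraries by summed CPM of the habenula markers was that of Nppa. In stressed saline, replicate 2 was highest (19.2 CPM of Nppa and 713 of the markers), replicate 3 next (14.5 and 423) and replicate 1 lowest (6.28 and 225). In non-stressed saline, replicate 3 was highest (2.13 and 128), then replicate 1 (1.47 and 72.3) and replicate 2 (0.940 and 70.4). In SHNK the orders by sum differed, with marker sums of 45.2, 39.5 and 44.8 in replicates 1 to 3. Per 100 CPM of the 9 genes there were 1.33 to 2.03 CPM of Nppa in non-stressed saline, 2.69 to 3.42 in stressed saline and 0.303 to 0.511 in SHNK. These 3 ranges did not overlap, but a sum is set mostly by the most abundant markers. On the mean log2 CPM of the 9 genes, a scale added after seeing the data, Nppa minus the markers was -1.22, -2.09 and -2.16 in non-stressed saline, -1.33, -1.52 and -1.08 in stressed saline and -2.65, -2.34 and -2.53 in SHNK. On that scale both saline groups overlapped and SHNK lay below them. The order of libraries on it was that of Nppa in stressed saline and in SHNK, but not in non-stressed saline, where the marker means were 1.82, 2.08 and 3.29.

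**Figure D2:**
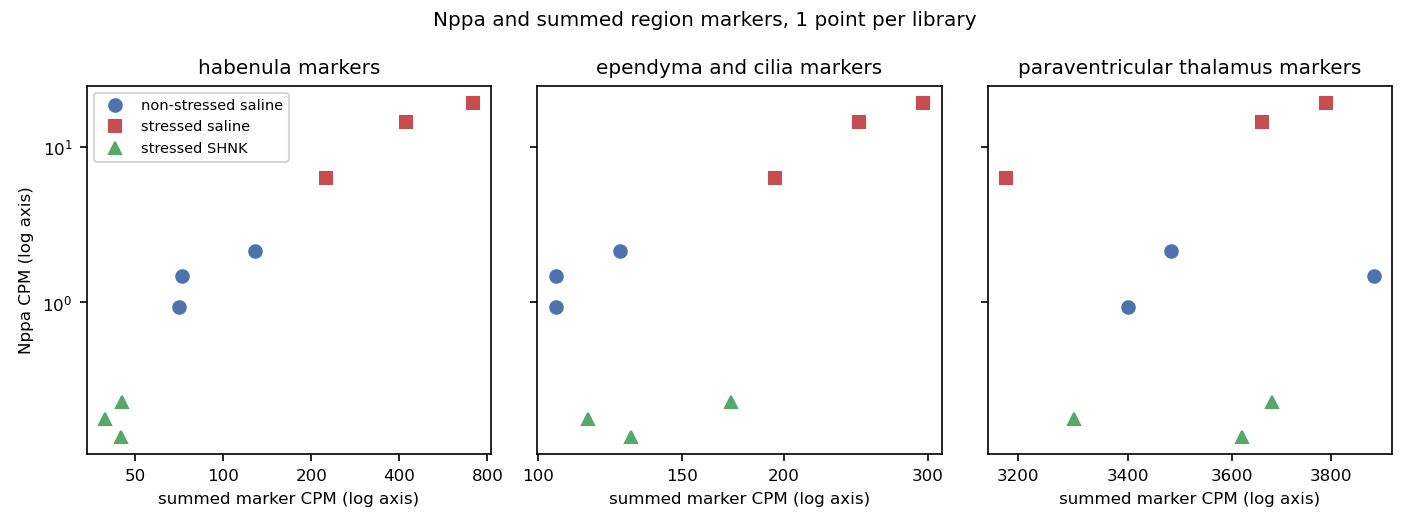
Nppa in CPM (log axis) against the summed CPM (log axes) of markers of the habenula, of ependyma and cilia, and of the paraventricular thalamus, with 1 point per library and colour and shape for the group. Nppa and the habenula markers are highest in the 3 stressed saline libraries (225 to 713 CPM of markers), while the paraventricular markers span 3180 to 3890 CPM with the groups mixed.

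The genes whose levels were most like those of Nppa over the 9 libraries were taken from 13570 genes with a mean of at least 1 on the log2 CPM scale. They were Slc25a1, a mitochondrial citrate carrier (Pearson r = 0.993), the orphan nuclear receptor Nr4a2 (0.992), Nwd2 (0.989), the nicotinic receptor subunit Chrna3 (0.988), Trim62 (0.984) and Scube1 (0.983). Spearman's rho for them ran from 0.95 to 1.0. The median r with Nppa over all these genes was -0.0236, and 34 genes had r over 0.95. The 9 points fall into 3 groups and share their libraries, so r is a description of likeness. With each group's mean removed, r was 0.901 for Slc25a1, 0.947 for Nr4a2, 0.860 for Nwd2, 0.868 for Chrna3, 0.938 for Trim62 and 0.886 for Scube1. The genes were picked by r over the same 9 libraries, which includes this within-group part, so these values are descriptions as well. Nwd2 and Chrna3 are also among the 9 habenula markers, so they enter the marker sums given above.

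The size of the differences varied widely among these 6 genes. Nr4a2 went from 7.71 ± 3.03 CPM in non-stressed saline to 45.0 ± 27.7 in stressed saline and 1.57 ± 0.657 in SHNK, and Slc25a1 from 76.2 ± 2.67 to 88.9 ± 4.75 and 64.4 ± 1.48. In SHNK against stressed saline the log2 fold change was -0.47 ± 0.077 for Slc25a1 and -1.22 ± 0.17 for Trim62, and between -5.40 (Nwd2) and -4.59 (Scube1) for the other 4. For Npr2 the closest 3 genes of 13569 were Lrrc45 (r = 0.984), LOC115486872 (0.982) and Zfp574 (0.982), against a median of 0.0432. None of these 3 passed in any comparison (adjusted p from 0.124 to 0.968).

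**Figure D3:**
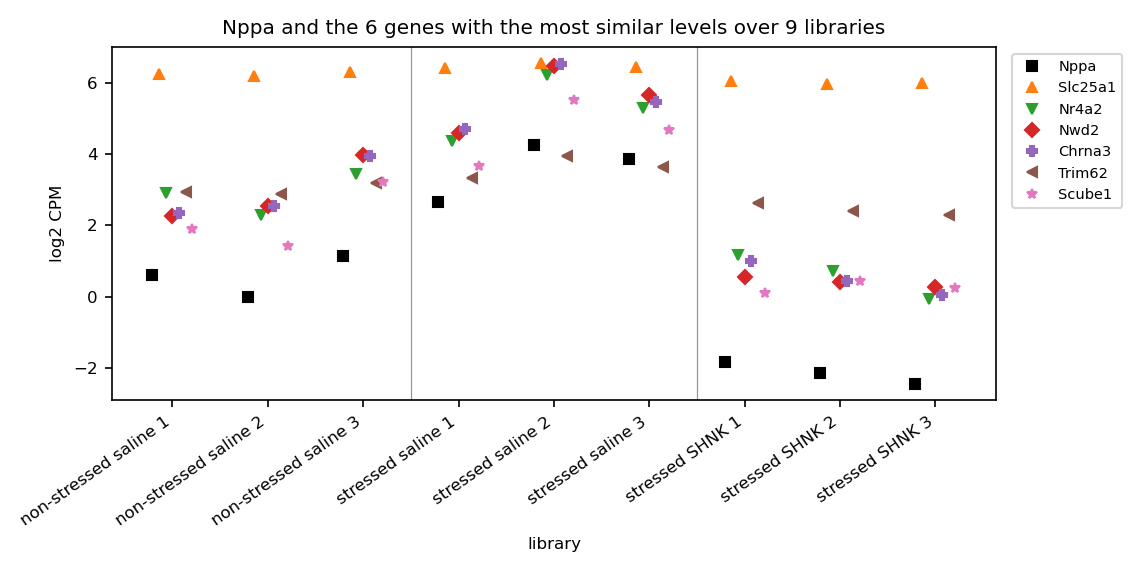
Log2 CPM of Nppa (black squares) and of the 6 genes with the highest Pearson correlation with it, in each of the 9 libraries; vertical lines part the groups. Nppa runs from -2.45 to 4.26, and the points of Slc25a1 stay near 6 in every library while those of Nr4a2, Nwd2, Chrna3 and Scube1 fall sharply in SHNK.

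Around the receptors, 38 pathway genes were tested in every comparison. In stressed against non-stressed saline 3 of 38 (7.89%) rose and none fell, while 1.15% of all genes rose and 0.0165% fell. The 38 had a median log2 fold change of -0.0031, beside -0.0167 over all genes. In SHNK against stressed saline 7 of 38 (18.4%) fell and none rose, while 3.96% of all genes fell and 2.45% rose, and the medians were -0.18 and -0.00905. In SHNK against non-stressed saline edgeR called 0 of 38 (DESeq2 called 1 and limma voom 0), with medians of -0.18 and -0.00491. Over all 18194 tested genes edgeR called 1 there, DESeq2 994 and limma voom 0. At an unadjusted p below 0.05 there were 9, 16 and 7 of the 38 genes in the 3 comparisons, where 9.45%, 23.3% and 18.3% of all genes were. The lists of other region markers differed between the same groups, and their part in these counts was not tested.

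Cyclic GMP has a second source in the soluble guanylyl cyclase that nitric oxide activates. Gucy1a1, its alpha-1 subunit, was at 21.7, 19.7 and 19.3 CPM in non-stressed saline, 30.6, 64.8 and 35.8 in stressed saline and 19.3, 16.5 and 18.0 in SHNK. All stressed saline libraries were above all others, and replicate 2 stood well above the others. Gucy1a1 rose by 1.11 ± 0.21 with stress (adjusted p = 0.0169) and fell by 1.29 ± 0.21 in SHNK against stressed saline (adjusted p = 0.00496). The rise lost its call with any 1 of the 3 non-stressed saline libraries left out (adjusted p = 0.0650, 0.0843 and 0.0550), while the fall passed without each of the 9 libraries in turn. Without stressed saline replicate 2 the rise and the fall were 0.71 and -0.89.

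The beta subunit gene Gucy1b1, the most abundant of this role at a mean of 30.1 CPM over the 9 libraries, had log2 fold changes of -0.029 ± 0.17 and -0.13 ± 0.17 in those comparisons (adjusted p = 0.993 and 0.695). Gucy1a2, the alpha-2 subunit, gave -0.21 ± 0.14 and 0.43 ± 0.14 (adjusted p = 0.760 and 0.0758). The signs of Gucy1a2 were opposite to those of Gucy1a1, but Gucy1a2 did not pass. Nos1, the neuronal nitric oxide synthase, was at 6.93, 6.86 and 5.54 CPM in non-stressed saline, 7.88, 10.3 and 9.09 in stressed saline and 6.98, 5.07 and 3.29 in SHNK. It fell by 0.82 ± 0.22 in SHNK against stressed saline (adjusted p = 0.0430). That call was lost when any of the 3 stressed saline libraries, SHNK replicate 2 or 3 or non-stressed saline replicate 1 was left out (adjusted p from 0.0519 to 0.169), and with no filter on low counts (adjusted p = 0.0530). The endothelial synthase Nos3 did not pass there (-0.35 ± 0.14, adjusted p = 0.143).

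Among 12 measured genes listed for phosphodiesterases that act on cyclic GMP and their subunits, 2 rose with stress, Pde1a and Pde2a. The same 2 fell in SHNK against stressed saline. Here and for Gucy1a1, as for Nppa, both comparisons use the stressed saline libraries, so a high level there moves both. Pde2a, which cyclic GMP stimulates to break down cyclic AMP, was at 47.4, 40.3 and 60.0 CPM in non-stressed saline, 72.3, 141 and 93.6 in stressed saline and 35.2, 29.4 and 28.1 in SHNK. Its 3 groups did not overlap, in the order seen for Nppa. Pde2a rose by 1.06 ± 0.20 (adjusted p = 0.0181) and fell by 1.73 ± 0.20 (adjusted p = 0.000570). In SHNK against non-stressed saline its log2 fold change was -0.67 ± 0.20 (adjusted p = 0.116). The rise lost its call when stressed saline replicate 2 (adjusted p = 0.0743) or non-stressed saline replicate 1 or 2 (0.0850 and 0.0970) was left out, and the fall passed without each library in turn.

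Pde1a, a calcium- and calmodulin-activated enzyme, was at 9.41, 10.8 and 9.54 CPM in non-stressed saline, 16.3, 30.6 and 18.5 in stressed saline and 11.5, 10 and 8.55 in SHNK. The non-stressed and SHNK libraries overlapped, and the stressed saline ones were above both. It rose by 1.14 ± 0.20 (adjusted p = 0.0117) and fell by 1.12 ± 0.20 (adjusted p = 0.00726). Without non-stressed saline replicate 1 the rise had adjusted p = 0.0669, and without SHNK replicate 3 the fall had adjusted p = 0.0558. Pde1b, a relative of Pde1a and the most abundant of this role at 235 to 366 CPM, gave -0.32 ± 0.11 and 0.12 ± 0.11 (adjusted p = 0.253 and 0.549). Pde11a, at 0.491 to 2.63 CPM, gave 1.37 ± 0.32 with stress (adjusted p = 0.0544) and -0.97 ± 0.31 in SHNK against stressed saline (adjusted p = 0.0750). Pde9a and Pde5a, both selective for cyclic GMP, gave -0.091 ± 0.088 and 0.22 ± 0.31 with stress and 0.053 ± 0.088 and 0.31 ± 0.30 in SHNK against stressed saline (adjusted p from 0.600 to 0.95).

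**Figure D4:**
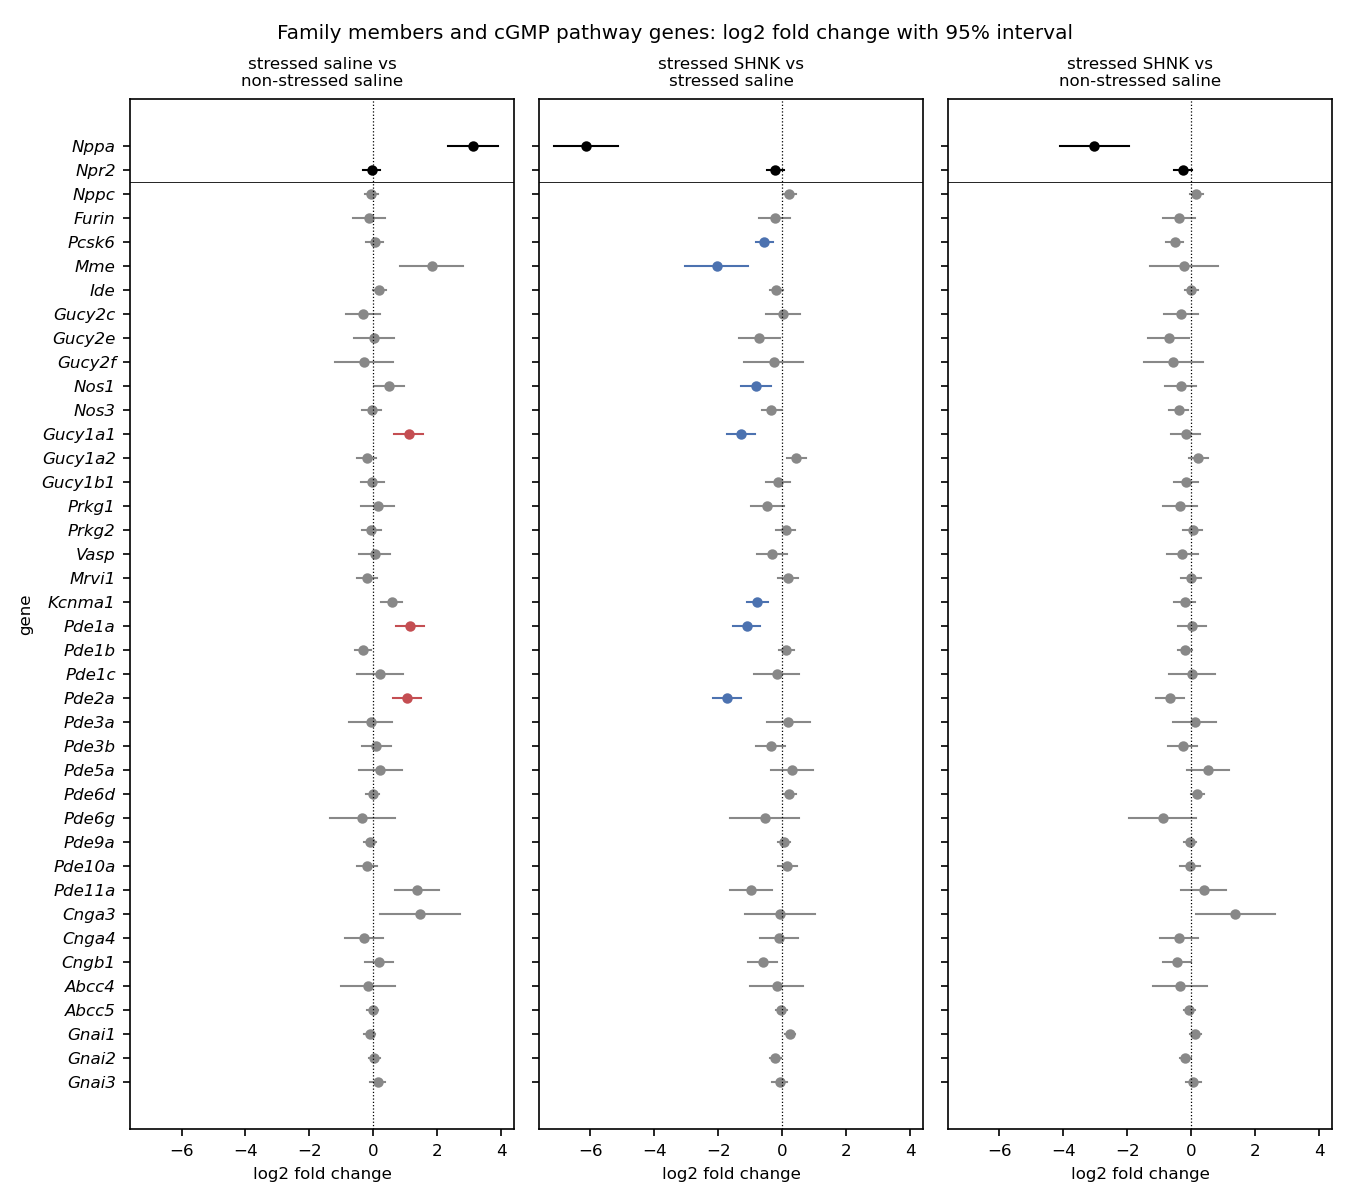
Fitted log2 fold changes (points) with 95% intervals (lines) of Nppa and Npr2 (black) and of 38 pathway genes in the 3 comparisons. Pathway genes past the threshold are red where higher and blue where lower (3 in the first panel, 7 in the second), and the others are grey. Nppa, at 3.12, -6.15 and -3.03, lies outside the range of the pathway genes in each panel.

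Enzymes that process or break down natriuretic peptides were represented by 4 measured genes, of which 2 fell in SHNK against stressed saline. Mme encodes neprilysin, which degrades these peptides among others, and was scarce, at 0.899, 0.783 and 0.442 CPM in non-stressed saline, 1.32, 4.78 and 1.41 in stressed saline and 0.631, 0.557 and 0.625 in SHNK. Stressed saline replicate 2, with 223 reads, was far above the rest. Mme gave 1.82 ± 0.46 with stress (adjusted p = 0.0806) and fell by 2.05 ± 0.46 in SHNK against stressed saline (adjusted p = 0.0203). The fall missed the threshold without stressed saline replicate 2 (-1.17, adjusted p = 0.0888) or SHNK replicate 2 or 3 (adjusted p = 0.0888 and 0.101). Pcsk6, the protease that activates the processing enzyme corin, was at 22.5, 18.8 and 23.2 CPM in non-stressed saline, 24.1, 22.6 and 19.5 in stressed saline and 17.1, 13.4 and 14.4 in SHNK, and fell by 0.56 ± 0.13 in SHNK against stressed saline (adjusted p = 0.0205). That call was missed without stressed saline replicate 1 or 2 or SHNK replicate 2 or 3 (adjusted p from 0.0713 to 0.109). Ide, the insulin-degrading enzyme, which also cleaves natriuretic peptides, and the protease Furin did not pass in either comparison (adjusted p from 0.280 to 0.968).

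Downstream of cyclic GMP, 5 genes of kinases and their substrates were measured and 1 of them fell. Kcnma1, the pore subunit of the large-conductance calcium-activated potassium channel, was at 86.3, 95.2 and 106 CPM in non-stressed saline, 108, 185 and 133 in stressed saline and 82.1, 87.5 and 78.9 in SHNK. It fell by 0.78 ± 0.15 in SHNK against stressed saline (adjusted p = 0.0100), a call missed without SHNK replicate 3 (adjusted p = 0.0705), and gave 0.57 ± 0.15 with stress (adjusted p = 0.0928). The cyclic GMP-dependent kinases Prkg1 and Prkg2 gave 0.13 ± 0.24 and -0.060 ± 0.13 with stress, and -0.47 ± 0.24 and 0.10 ± 0.13 in SHNK against stressed saline (adjusted p from 0.270 to 0.981). Among 3 cyclic nucleotide-gated channel genes, Cngb1, the most abundant at 1.66 to 3.14 CPM, gave -0.62 ± 0.21 in SHNK against stressed saline (adjusted p = 0.0911). The cyclic GMP exporter Abcc5, at 43.6 to 48.0 CPM, and Gnai2, an inhibitory G protein alpha subunit of the kind Npr3 engages, at 365 to 450 CPM, did not pass in any comparison (adjusted p from 0.104 to 0.988). The other membrane guanylyl cyclases measured were Gucy2c, Gucy2e and Gucy2f, of which Gucy2e was the most abundant at 1.09 to 2.92 CPM. None of these 3 passed in any comparison (adjusted p from 0.162 to 0.996).

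**Figure D5:**
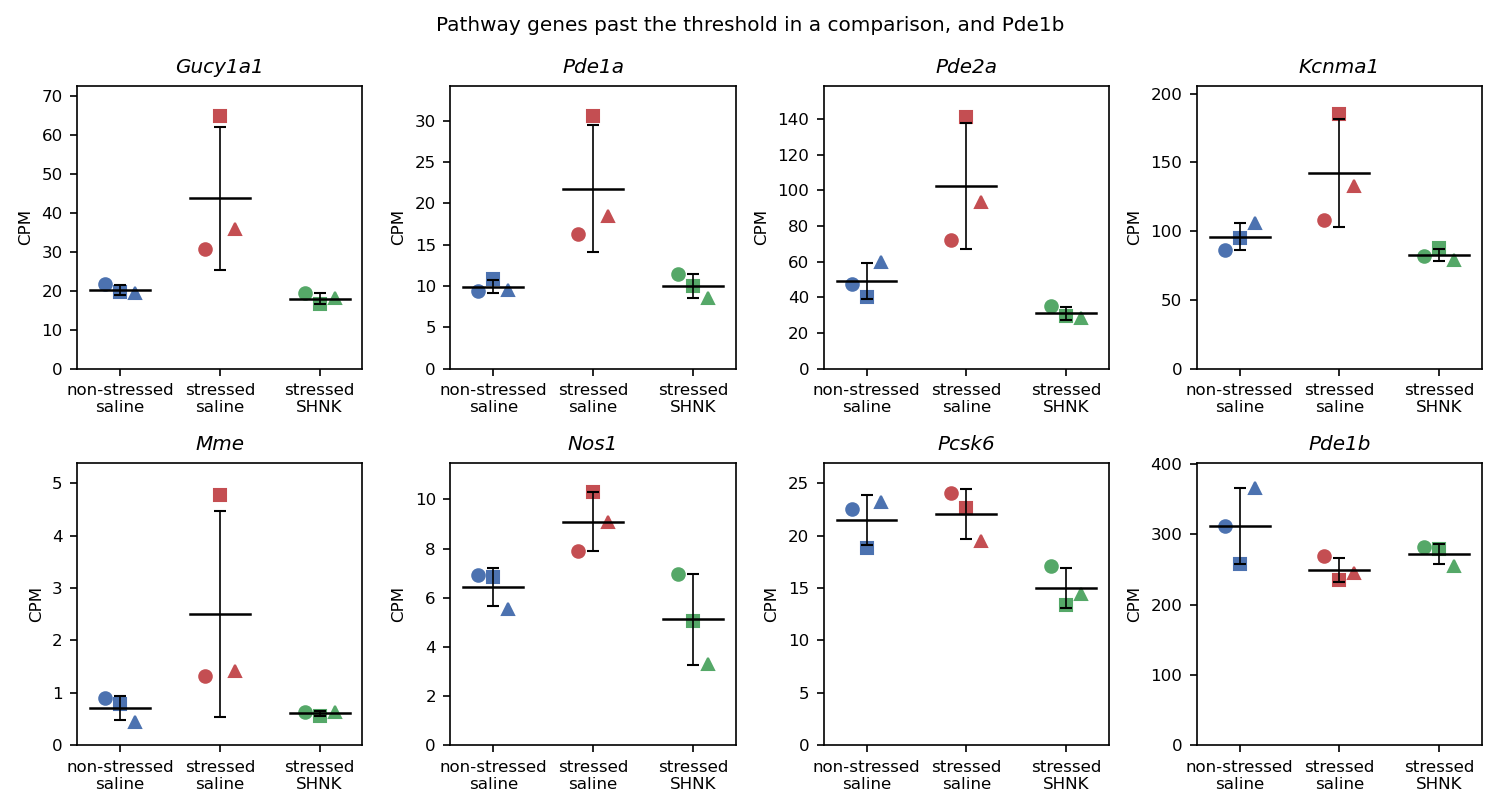
CPM of the 7 pathway genes past the threshold in SHNK against stressed saline, and of Pde1b, by group on linear axes from 0; circles, squares and triangles are replicates 1, 2 and 3, horizontal bars are means and error bars SD (n = 3). Stressed saline replicate 2 (square) is the highest library for 6 of the 8 genes, for example 64.8 CPM of Gucy1a1 and 4.78 of Mme.

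Stressed saline replicate 2, the library with the highest level of Nppa (19.2 CPM), was thus also the highest of the 9 for Gucy1a1, Pde1a, Pde2a, Kcnma1, Mme and Nos1, and for the summed habenula markers (713 CPM). The pathway genes named here passed as lower in SHNK than in stressed saline, which favours a highest library in the stressed saline group. Pcsk6 was highest in stressed saline replicate 1 and Npr2 in non-stressed saline replicate 1. Library totals ran from 32307869 to 51569143 reads, and stressed saline replicate 2 had 44913532.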

How the data were processed

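Gene-level read counts were analysed for 9 libraries (3 per group), made per the labels' protocols from 100 ng of total RNA with the SMARTer Ultra low RNA kit. The authors deposited whole-number counts per gene symbol, not normalized. Trimmomatic 0.38, HISAT2 and StringTie, with GRCm38 and mm10, are named in the submitters' processing notes; no source used here states strandedness or counting settings. The lowest count in the table is 1, so a gene unread in any library is outside the data.

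Of 18956 symbols, 18194 passed filterByExpr (minimum count 10, minimum total 15). Counts were scaled by TMM and fitted in one quasi-likelihood model over the 3 groups (edgeR 4.0.16, R 4.3.3); adjusted p is Benjamini-Hochberg over all tested genes (edgeR unless another tool is named). The standard error is the log2 fold change divided by the root of the test's F. CPM are TMM-scaled, log2 CPM used a prior count of 2, and exon lengths are unions of GENCODE M21 exons. Alternatives used DESeq2 1.42.0 and limma 3.58.1 voom, 2 other scalings, 2 other filters, only the compared groups, a replicate block and leaving out each library. On simulated data (18109 genes, stressed against non-stressed saline) 75% of 2-fold and 93.9% of 4-fold changes were recovered. Of the calls made there at adjusted p under 0.05, 7.18% were false. Members and lists were chosen with earlier results of these data known. Named pathway genes were those past the threshold anywhere and the most abundant of each role; other pathway genes named were chosen after their values were seen. Likeness was Pearson's r on log2 CPM (6 genes for Nppa, 3 for Npr2), and neighbours lay within 50000 bases of Nppa in the RefSeq table for GRCm38.p6; some items the rule names are not reported here.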

Additional observations from a re-analysis of the deposited data

How the results depend on the processing

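The count of members called, a description since they were chosen with these results known, was 1 of 2 in every alternative for stressed against non-stressed saline and for SHNK against stressed saline. In SHNK against non-stressed saline the count went from 0 to 1 with DESeq2 and with only the 2 groups compared, and was 0 to 1 without 1 library, at 1 without non-stressed saline replicate 2, stressed saline replicate 1 or stressed saline replicate 2. For the pathway genes, the 3 calls in stressed against non-stressed saline became 6 with DESeq2 and ran from 0 (without non-stressed saline replicate 1) to 5 (without stressed saline replicate 1) when 1 library was left out, with 1 call without non-stressed saline replicate 2. The 7 calls in SHNK against stressed saline were 10 with DESeq2 and 6 with no filter (without Nos1) and ran from 2 (without SHNK replicate 3) to 8, with 4 calls without stressed saline replicate 2 or SHNK replicate 2. In SHNK against non-stressed saline the 0 calls became 1 with DESeq2 and ran from 0 to 1, at 1 without non-stressed saline replicate 2. Calls over all tested genes also moved. In stressed against non-stressed saline 213 became 472 with DESeq2, 50 without non-stressed saline replicate 1 and 306 without stressed saline replicate 1. In SHNK against stressed saline 1167 became 2005 with DESeq2, 176 without SHNK replicate 3 and 238 without SHNK replicate 2. In SHNK against non-stressed saline 1 became 994 with DESeq2, 749 without non-stressed saline replicate 2 and 9 with only the 2 groups compared. The cause of these shifts was not tested. Signs were compared only for Nppa, Npr2 and the 7 pathway genes called. None of these changed sign under the alternatives in a comparison where it was called. Values near 0 did cross it elsewhere: Npr2 in stressed against non-stressed saline was 0.040 without non-stressed saline replicate 1 and 0.001 without stressed saline replicate 3, and Pcsk6 (same comparison), Pde1a and Mme (SHNK against non-stressed saline) also crossed 0 when 1 library was left out.

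Replicate numbers are shared between the groups. Same-numbered libraries deviated from their group means with correlations of -0.100 to 0.106, and differently numbered ones with -0.194 to 0.108. These ranges are much alike and show no pairing by number, but with 3 libraries a group they cannot exclude it. With the replicate block the members called were 1, 1 and 0 and the pathway genes called 3, 7 and 0 in the 3 comparisons, as without it. The level of Nppa in SHNK rests on 25 reads over 3 libraries, which limits its precision.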
